A study of Arabidopsis thaliana with 3 samples.

Results

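The AP2/ERF family is among the largest families of transcription factors in Arabidopsis thaliana, and 60 of its genes were examined here for binding by the chromatin protein AIPP3. The 60 genes, of 27444 protein-coding genes on the nuclear chromosomes, were listed by locus identifier and cover ERF, DREB, RAP2, CRF, SHINE, RAV and AP2 genes. The list was chosen from results of these same peak lists, so the binding of its members is a description and was not tested. A gene was called bound in a library when a peak overlapped by at least 1 bp its target region. This region took in the gene up to its transcription termination site (TTS) and 1 kb before the transcription start site (TSS).

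AIPP3 is a BAH domain protein, and the study asked whether it reads H3K27me3, the histone mark of genes silenced by Polycomb proteins. Chromatin immunoprecipitation followed by sequencing (ChIP-seq) recovers DNA that a protein holds in the nucleus, here with an antibody against the Myc tag, in 13-day-old seedlings. The data comprised 2 libraries from AIPP3-4Myc plants, in which a Myc-tagged AIPP3 driven by its native promoter had been put into the corresponding mutant, and 1 library from Col-0 plants, the wild type without tag. The tag is therefore not the sole possible difference between these plants and Col-0. Nothing in the labels said whether the 2 AIPP3-4Myc libraries came from separate cultures or lines, although each was given its own code, left unexplained there. Nuclear peaks numbered 926 in AIPP3-4Myc replicate 1, 430 in AIPP3-4Myc replicate 2 and 16 in Col-0. The number of reads behind them is unknown, and peak lists hold no expression values by which the tissue could be checked.

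AP2/ERF proteins share the AP2 domain, a compact fold that contacts DNA in the major groove. ERF proteins are known for binding the GCC box of defence and ethylene response genes, DREB proteins for binding the dehydration-responsive element, and RAV proteins join the AP2 domain to a B3 domain. Many members are switched on quickly by ethylene, jasmonate, wounding, cold or drought, and others shape meristems, the cuticle and the time of flowering.

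AIPP3-4Myc peaks were found in at least 1 library at 16 of the 60 AP2/ERF genes (26.7%), beside 5.72% of all protein-coding genes. Of the 16 genes, 9 were bound in both AIPP3-4Myc libraries. These 9 were ERF1A, ERF13, ERF4, RRTF1, CRF1, DREB2A, RAP2.4, TEM1 and TEM2. They belong to 7 of the 12 subgroups of the list and lie on all 5 chromosomes. No member was bound in Col-0.

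AIPP3-4Myc replicate 1 had a peak at 14 members (23.3%), beside 5.11% of all protein-coding genes. Replicate 2 had a peak at 11 members (18.3%), beside 2.28% of all protein-coding genes. The libraries thus averaged 12.5 ± 2.1 bound members (SD, n = 2). For both libraries together the 9 members made up 15% of the list, beside 1.67% of all protein-coding genes. In Col-0 0 of 60 members were bound, beside 0.0547% of all protein-coding genes, and the nearest Col-0 peak lay 57.3 kb from the target region of a member, RAP2.4. These background shares stand beside the members' shares as a description, since the list was drawn up with the peaks known. With a single Col-0 library, the contrast with the untagged plants has no replicate check.

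The AP2 stretch of the coding sequence, the part that matches the AP2 region of ERF4, lay wholly under the peak in 25 of 25 peaks at members. A peak was about as long as a gene, as described below, so this coverage does not place the peaks on the AP2 stretch in particular. All 9 genes bound in both libraries had this stretch covered in each library. Of these 9 genes, 6 are printed here because they differ in the short words discussed below. Each is shown 5′ to 3′ on the strand of its gene, from the TAIR10.1 sequence of RefSeq, and capitals mark matches to the GCC box core (GCCGCC), the DRE core (CCGAC), the word GAGAGA or the telobox (AAACCCTA) on either strand.
ERF1A, chr4:9759834-9760022, plus strand: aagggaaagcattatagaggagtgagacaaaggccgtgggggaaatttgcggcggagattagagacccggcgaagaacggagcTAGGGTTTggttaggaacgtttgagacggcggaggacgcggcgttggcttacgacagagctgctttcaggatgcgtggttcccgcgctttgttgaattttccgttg
ERF13, chr2:18495701-18495889, plus strand: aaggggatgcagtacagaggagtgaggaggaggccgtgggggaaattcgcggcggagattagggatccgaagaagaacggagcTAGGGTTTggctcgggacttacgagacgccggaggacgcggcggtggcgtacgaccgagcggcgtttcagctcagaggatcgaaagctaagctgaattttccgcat
CRF1, chr4:6795365-6795538, minus strand: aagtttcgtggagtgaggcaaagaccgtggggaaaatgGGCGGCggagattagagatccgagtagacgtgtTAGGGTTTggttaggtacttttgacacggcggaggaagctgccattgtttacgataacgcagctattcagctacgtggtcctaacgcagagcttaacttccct
ERF4, chr3:5121529-5121723, plus strand: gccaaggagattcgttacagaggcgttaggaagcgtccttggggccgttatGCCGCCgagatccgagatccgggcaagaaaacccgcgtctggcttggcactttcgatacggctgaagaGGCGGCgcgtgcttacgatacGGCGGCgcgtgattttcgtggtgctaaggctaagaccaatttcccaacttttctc
DREB2A, chr5:1602881-1603054, plus strand: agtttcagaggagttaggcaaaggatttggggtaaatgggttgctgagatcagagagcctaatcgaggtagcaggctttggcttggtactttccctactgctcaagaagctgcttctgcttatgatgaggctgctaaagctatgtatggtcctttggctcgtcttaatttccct
TEM1, chr1:8982599-8982766, minus strand: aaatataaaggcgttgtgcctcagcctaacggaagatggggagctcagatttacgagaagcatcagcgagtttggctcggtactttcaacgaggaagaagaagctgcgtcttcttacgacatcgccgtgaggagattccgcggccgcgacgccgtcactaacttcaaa
ERF1A, ERF13 and CRF1 carry the telobox in reverse orientation, as TAGGGTTT, within the coding sequence. ERF4 carries 3 GCC box cores in this stretch and CRF1 carries 1. DREB2A and TEM1 have none of the 4 words there.

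In the ERF branch, group IX holds activators that respond to ethylene and to pathogens. ERF1A (AT4G17500, chromosome 4, 9759203-9760391, plus strand), an activator that binds the GCC box, had a peak score of 111.53 in replicate 1 and 137.88 in replicate 2, and no peak in Col-0. The score is the authors' MACS value, which is 10 times the negative logarithm to base 10 of its p-value and grows with sequencing depth, so that ranks within each library are given here in place of differences between libraries. The ERF1A peak ranked 179 of 926 in replicate 1 and 50 of 430 in replicate 2. The replicates shared an interval of 1385 bp (chr4:9759143-9760527), which took in the whole gene.

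ERF13 (AT2G44840, chromosome 2, 18495215-18496327, plus strand), a further group IX gene, had scores of 141.49 in replicate 1 and 119.16 in replicate 2, and no peak in Col-0. Its peaks ranked 97 in replicate 1 and 77 in replicate 2. The replicate 1 peak reached 1440 bp upstream of the TSS and its midpoint lay 140 bp upstream, whereas the replicate 2 peak began 143 bp upstream. Both covered the entire gene, so the libraries differed in how far the peak ran into the promoter and not in whether the gene was covered.

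ERF4 (AT3G15210, chromosome 3, 5121303-5122562, plus strand) encodes a repressor with an EAR motif that damps ethylene and jasmonate responses. Its scores were 211.05 in replicate 1 and 253.92 in replicate 2, with no peak in Col-0, and its ranks were 34 and 10. The peak edges agreed closely, since the shared interval of 2172 bp made up 98.6% of the replicate 1 peak and 100% of the replicate 2 peak. Both peaks ran past the 3′ end and overlapped an annotated non-coding RNA (AT3G00330), up to 2015 bp from the TSS in replicate 1 and 1989 bp in replicate 2.

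RRTF1 (AT4G34410, chromosome 4, 16451876-16453260, plus strand) is a redox-responsive factor that is induced by wounding and jasmonate. Its scores of 222.94 in replicate 1 and 236.02 in replicate 2 stood at ranks 25 and 11, and Col-0 had no peak. Rank 25 was the best of the 14 bound members in replicate 1. The peaks also overlapped the body of the neighbouring gene AT4G34412, so the signal cannot be given to RRTF1 alone.

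CRF1 (AT4G11140, chromosome 4, 6794630-6796398, minus strand) belongs to the cytokinin response factors, which act downstream of cytokinin in leaf and cotyledon growth. It had scores of 187.87 in replicate 1 and 150.33 in replicate 2, at ranks 49 and 43, and no peak in Col-0. Neither peak reached the TSS. They began 251 bp downstream of it in replicate 1 and 379 bp downstream in replicate 2, and each covered 100% of the coding sequence.

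In the DREB branch, DREB2A (AT5G05410, chromosome 5, 1602205-1604112, plus strand), an activator in drought and heat responses, had scores of 122.55 in replicate 1 and 79.2 in replicate 2, at ranks 133 and 191. Its replicate 2 standing was the lowest of the 9 genes, with 55.6% of that library's peaks scoring lower. Both peaks covered the whole gene and touched the body of AT5G05420 and the target region of AT5G05400. Col-0 had no peak.

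RAP2.4 (AT1G78080, chromosome 1, 29364072-29366207, plus strand) is known for roles in light, ethylene and wound responses. Its scores were 205.32 in replicate 1 and 269.04 in replicate 2, at ranks 37 and 8, and Col-0 had no peak. It was the only one of the 9 in the first 10 ranks of replicate 2 besides ERF4. The shared interval of 1750 bp lay within the gene and held no part of any other annotated gene.

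Both RAV members of the list were bound in both libraries. TEM1 (AT1G25560, chromosome 1, 8981556-8983314, minus strand) represses the florigen gene FT, and its scores were 144.78 in replicate 1 and 109.64 in replicate 2, at ranks 89 and 95. TEM2 (AT1G68840, chromosome 1, 25880155-25882222, plus strand), which acts together with TEM1, had scores of 94.46 in replicate 1 and 109.15 in replicate 2, at ranks 275 and 98. Neither had a peak in Col-0, and the TEM2 peaks also touched the target region of AT1G68845. The pair are paralogs whose coding sequences are 74.4% identical, the highest value between a gene bound in both libraries and its closest relative in the list.

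**Figure D1:**
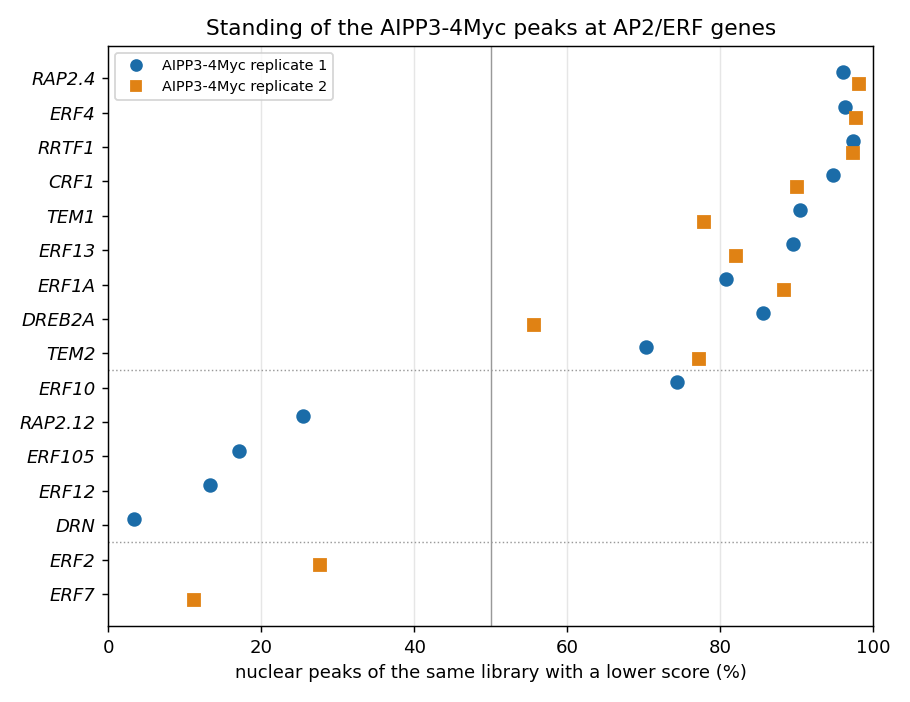
Standing of each AIPP3-4Myc peak at an AP2/ERF gene within its own library, as the share of nuclear peaks of that library with a lower score (x axis, percent), for replicate 1 (circles) and replicate 2 (squares). The top 9 genes were bound in both libraries and all lie right of the 50% line, the next 5 were bound in replicate 1 alone and the last 2 in replicate 2 alone.

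Within their libraries, the peaks at the 9 genes stood high. In replicate 1 their scores ranged from 94.46 to 222.94 with a median of 145, against a median of 98.6 over the 459 protein-coding genes bound in both libraries and 72.7 over all nuclear peaks. In replicate 2 they ranged from 79.2 to 269.04 with a median of 138, against 81.7 and 74.3. Over the whole family, described below, the 15 genes bound in both libraries had medians of 123 in replicate 1 and 110 in replicate 2. The lowest of these 15 scored 51.1 in replicate 2. The 9 come from a list chosen with the peaks known, so their standing is a description. All 9 exceeded the median of all nuclear peaks in each library. The 7 members bound in 1 library stood lower, with 1 of 7 above that median.

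Among the members bound in replicate 1 alone, ERF10 (AT1G03800), an EAR-motif gene, had the highest score, 100.38. Its peak was 4003 bp wide and overlapped the neighbouring gene SOM (AT1G03790), its midpoint lay 2008 bp downstream of the ERF10 TSS and beyond the gene, and it overlapped the target region of AT1G03810 as well. RAP2.12 (AT1G53910), a group VII factor in oxygen sensing, had a score of 59.37. ERF105 (AT5G51190) had 55.85, in a peak that also overlapped the body of the neighbouring gene AT5G51180. ERF12 (AT1G28360) had 54.52, and DRN (AT1G12980), a regulator of embryo and meristem patterning, had 51.17. In replicate 2 alone, ERF2 (AT5G47220), a close relative of ERF1A, had 58.86 and ERF7 (AT3G20310), an EAR-motif gene in abscisic acid responses, had 52.88. Apart from ERF10, these values lay near the score of 50 below which the lists hold no peak. A missing peak in the other library therefore states that the threshold was not passed there, not that AIPP3 was absent.

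The members bound in replicate 1 were also bound in replicate 2 in 64.3% of cases, beside 32.7% over all protein-coding genes bound in replicate 1. Of the members bound in replicate 2, 81.8% were bound in replicate 1, beside 73.3% over all such genes. In the 84 family genes outside the list, described below, the 2 shares were 35.3% and 85.7%. The list was drawn up with the peaks known, so its own shares are a description. When the replicate 1 list was shortened to its 430 highest peaks, as many as replicate 2 holds, the same 9 genes were bound in both and 10 members were bound in replicate 1.

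**Figure D2:**
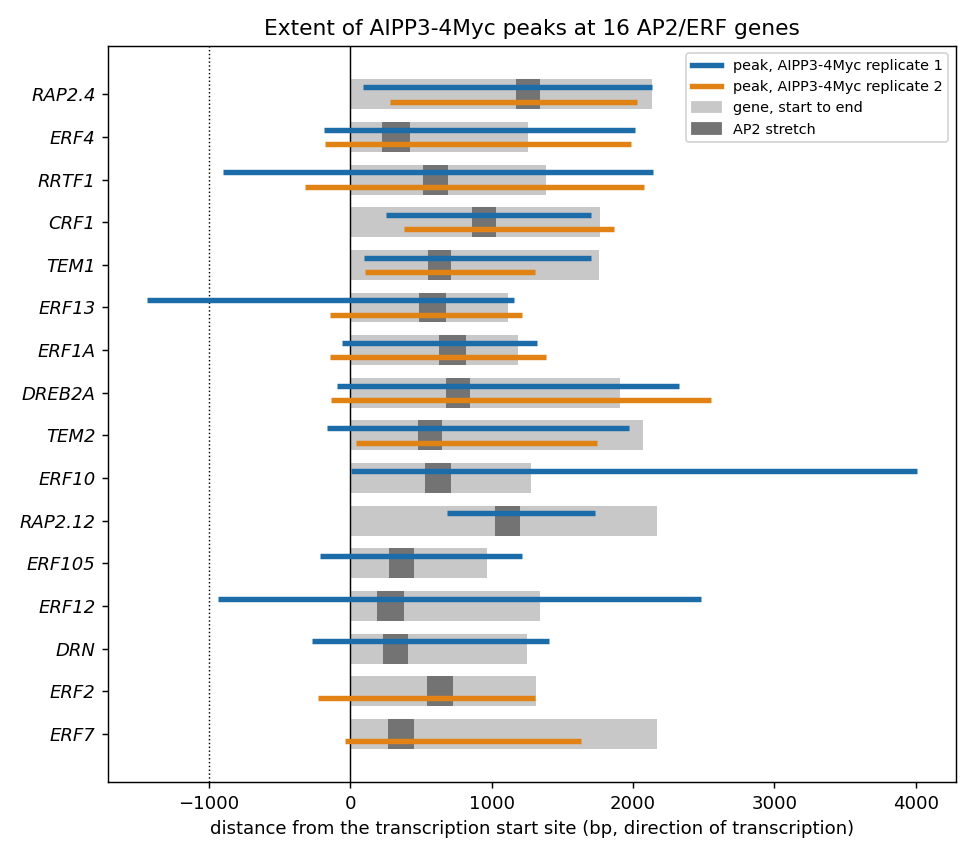
AIPP3-4Myc peaks at the 16 bound AP2/ERF genes (coloured lines, replicate 1 above replicate 2) along the distance from the TSS in bp, in the direction of transcription. Light grey bars span the gene, dark grey bars the AP2 stretch, the solid line marks the TSS and the dotted line the upstream limit of the target region. Every peak covers the AP2 stretch, and most extend over the greater part of the gene.

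The peaks lay over the genes themselves. In replicate 1 the midpoints of the 14 peaks had a median position 901 bp downstream of the TSS, and 10 of the 14 fell in the coding sequence. In replicate 2 the median was 878 bp downstream over 11 peaks, and 10 of the 11 fell in the coding sequence. Peaks covered the TSS in 9 of 14 members in replicate 1 and 7 of 11 in replicate 2. The median share of the gene body under the peak was 100% in replicate 1 and 99.3% in replicate 2, and the smallest was 48.5%, at RAP2.12.

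AP2/ERF genes are short. The 9 genes bound in both libraries had a median length of 1759 bp, the 7 bound in 1 library 1314 bp and the 44 unbound members 1348 bp, against 2078 bp over all protein-coding genes. Median peak widths at members were 2089 bp in replicate 1 and 1670 bp in replicate 2, so a peak was about as long as a gene. All 9 had an uninterrupted coding sequence, as did 6 of the 7 bound in 1 library and 28 of the 44 unbound members, against 23% of all protein-coding genes. The GC content of the 9 gene bodies ranged from 40.1% to 46.6% with a median of 42.1%, against 40.5% for unbound members and 38.9% for all protein-coding genes.

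**Figure D3:**
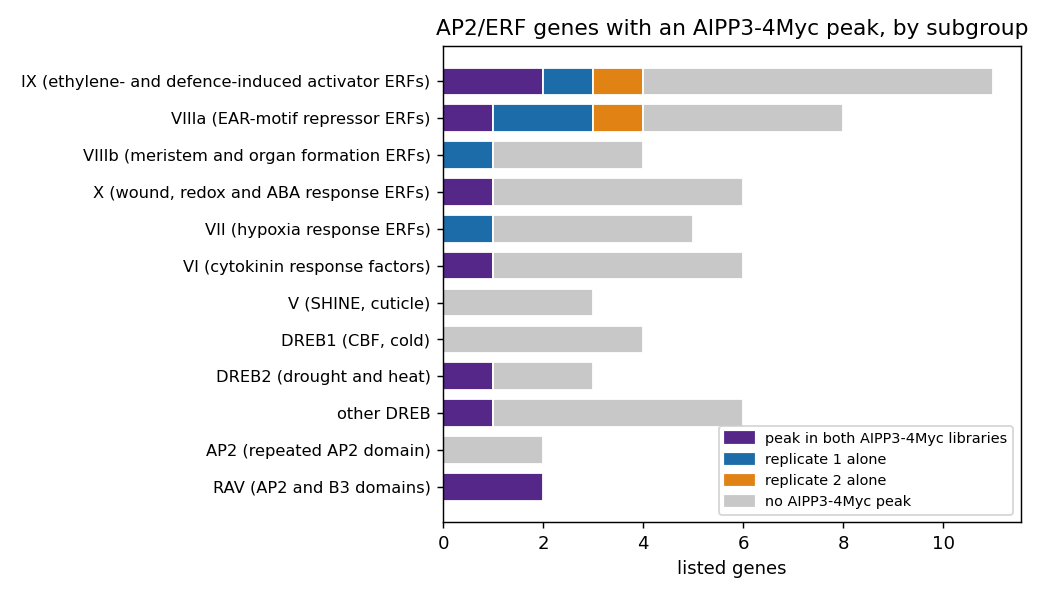
Number of listed AP2/ERF genes (x axis) in each of 12 subgroups, divided into genes with a peak in both AIPP3-4Myc libraries, in replicate 1 alone, in replicate 2 alone and in neither. The RAV bar is filled by genes bound in both libraries, and the SHINE, DREB1 and AP2 bars hold unbound genes alone.

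Bound and unbound genes stood side by side in most subgroups. Over the list, 15% of genes were bound in both libraries and 26.7% in at least 1, beside 1.67% and 5.72% of all protein-coding genes. The other 44 of the 60 were unbound. In group IX, 2 of 11 genes were bound in both libraries and 2 in 1 library, while ERF1B, ORA59, ERF5, ERF6, ERF14, ERF15 and ERF104 had no AIPP3-4Myc peak. ERF1B and ORA59 are the factors best known for joining ethylene and jasmonate signals. In group VIIIa, which holds the EAR-motif repressors, 1 of 8 was bound in both and 3 in 1 library. Of the 6 cytokinin response factors CRF1 alone was bound, and of the 6 group X genes RRTF1 alone. In group VII, the hypoxia response ERFs, 1 of 5 genes had a peak, in replicate 1. The 4 DREB1 genes, which include the cold regulators CBF1 and CBF2, the 3 SHINE genes of the cuticle, and AP2 and TOE1 had no peak in either library. Subgroups held 2 to 11 genes, so their counts are given without comparison.

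For each of the 9 genes the closest coding sequence in the list was sought by identity. It was unbound in 6 cases, bound in replicate 2 alone in 1 case (ERF2, for ERF1A, at 64.7%) and bound in both for the TEM pair. Unbound genes made up the greater part of the list, 44 of 60, so an unbound closest relative is the usual case. DREB2B, at 62.5% identity to DREB2A, CRF2, at 60.8% to CRF1, and ERF8, at 61.7% to ERF4, had no AIPP3-4Myc peak. In 2 of the 6 cases the closest sequence belonged to another subgroup, ERF6 for RRTF1 at 51.8% and ERF5 for RAP2.4 at 50.1%. Values this low also occurred elsewhere between subgroups, as for ABR1 and AP2 at 47.6%. The search took in the 60 listed genes alone, so closer relatives among the other 84 family genes were not considered. Identities of the 9 to their closest relative in the list ran from 50.1% to 74.4%. None of the 9 gene bodies held a stretch of 50 bases that occurs elsewhere in the nuclear genome. The same held for most unbound members. In the unbound DREB2C, 1.18% of such stretches were repeated elsewhere. In RAP2.12, 19% of such stretches were repeated elsewhere, but 0 of them lay under its peak.

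Some neighbours on the chromosome differed in their calls, in a list where 44 of 60 genes were unbound. ERF6 lies 5.04 kb from ERF1A and was unbound, with the nearest AIPP3-4Myc peak 3.9 kb from its target region. ERF5 lies 6.92 kb from ERF2 and ERF11 lies 2.67 kb from ERF12, and ERF5 and ERF11 were unbound. ERF2 had a peak in replicate 2 alone, at a score of 58.86, and ERF12 in replicate 1 alone, at 54.52. For these pairs the difference may be no more than a threshold passed in 1 library. The 3 DREB1 genes in tandem on chromosome 4, DREB1A, CBF1 and CBF2, had no peak at any of them, and 0.596% to 3.95% of their 50-base stretches occur elsewhere. The part of such repeats in the missing peaks was not tested.

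**Figure D4:**
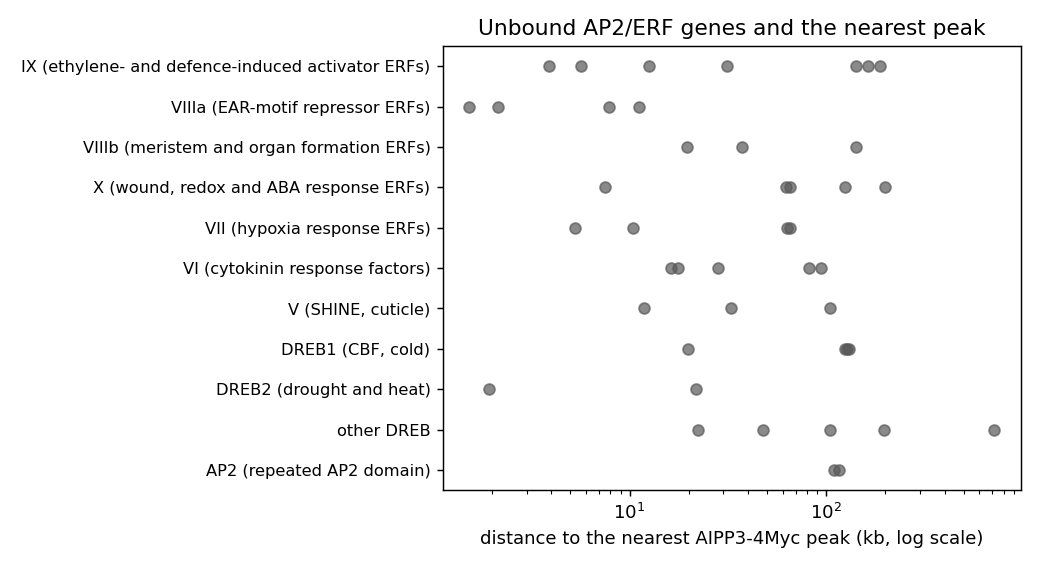
Distance in kb (log scale) from the target region of each of the 44 unbound AP2/ERF genes to the nearest peak of either AIPP3-4Myc library, by subgroup, 1 point per gene. Distances run from 1.53 kb at ERF11 to 716 kb at RAP2.9.

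For the unbound genes the nearest AIPP3-4Myc peak lay a median of 42.6 kb away. Just outside the rule were ERF11, at 1.53 kb from the peak over ERF12, and DREB2C, at 1.93 kb, and these were the only 2 within 2 kb. Just inside it by score were DRN, at 51.17 in replicate 1, and ERF7, at 52.88 in replicate 2. Most unbound members were thus far from any peak, and the counts of 14, 11 and 9 bound members were the same when only the gene body was used.

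Outside the list, the family was completed by protein match. Of 144 genes whose protein matched that of ERF4, 60 were the members and 84 the rest. Of the 84, 6 were bound in both libraries (7.14%), 17 in replicate 1 (20.2%) and 7 in replicate 2 (8.33%), so that 15 of the 144 (10.4%) were bound in both and 0 in Col-0. The 6 were DDF1, RAV1, EDF3, AT1G22190, AT1G36060 and AT2G44940. For both libraries, replicate 1 and replicate 2, the shares of all protein-coding genes were 1.67%, 5.11% and 2.28%. Those of the listed members were 15%, 23.3% and 18.3%, higher than in the 84, and the list was chosen with the peaks known. A wider list by words of the annotation also took in proteins with a B3 domain alone and translation release factors. It held 132 genes, of which 6 were bound in both libraries (4.55%).

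**Figure D5:**
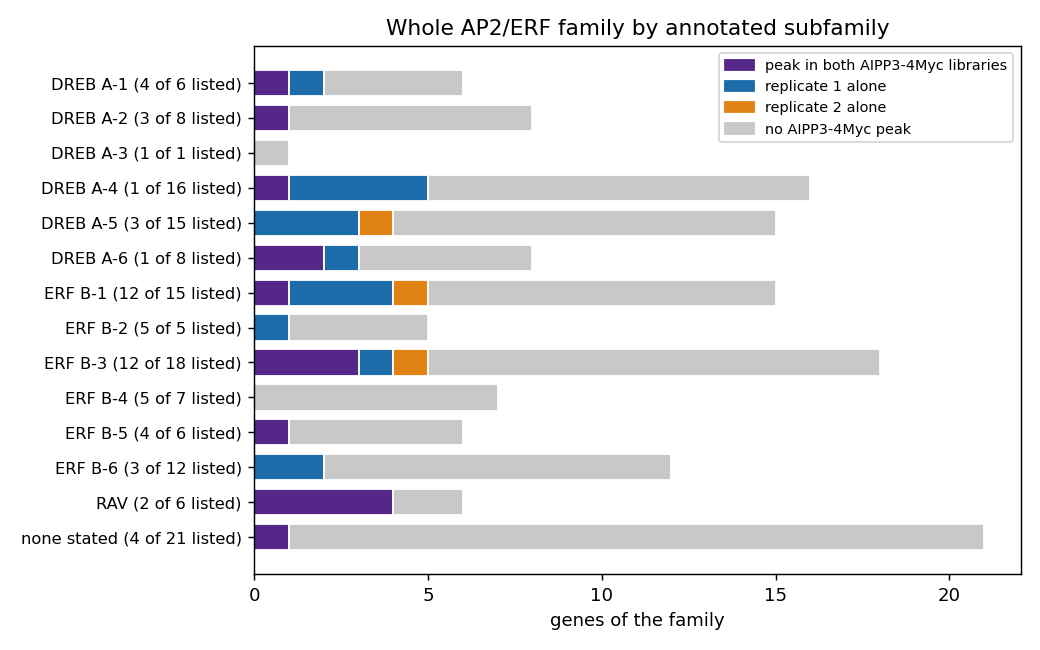
All 144 AP2/ERF genes by the subfamily given in the RefSeq annotation, with the number of genes on the x axis and the same colours as for the 12 subgroups. The RAV bar has 4 of 6 genes bound in both AIPP3-4Myc libraries, and the ERF B-4 bar has none with a peak.

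Of the 6 genes of the RAV class in the family, TEM1, TEM2, RAV1 and EDF3 were bound in both libraries, and AT1G50680 and AT1G51120 were not bound in either. RAV1, a growth regulator, had scores of 118.13 in replicate 1 and 82.02 in replicate 2, and EDF3 had 92.24 and 52.45. Neither had a Col-0 peak. With a score of at least 100 in both libraries, TEM1 alone of the RAV class remained, against 3 ERF B-3 genes (ERF1A, ERF13 and RRTF1). In the DREB branch, DDF1, known for salt and gibberellin responses, had 107.08 and 93.26, while its relatives in the DREB1 group of the list had no peak. DDF2 (AT1G63030), of the same DREB A-1 subfamily and outside the list, had a score of 59.05 in replicate 1 alone. AT1G22190 had 144.56 in replicate 1 and 172.38 in replicate 2. AT1G36060, of the same DREB A-6 subfamily as RAP2.4, had 102.56 and 78.36, and AT2G44940, of the DREB A-4 subfamily, had 115.32 and 51.1. No ERF B-4 gene of the 7 annotated was bound in any library, whereas 3 of 18 ERF B-3 genes were bound in both. The 2 groupings differ for RRTF1, which is ERF B-3 here but in group X of the list. The other 5 group X genes of the list are ERF B-4, so these counts depend on the grouping used.

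The genes that make, perceive and relay ethylene were counted in the same way. Of the 30 genes of this list, 2 were bound in replicate 1 (6.67%) and 2 in replicate 2 (6.67%), beside 5.11% and 2.28% of all protein-coding genes, and 0 in Col-0. In both libraries 1 of the 30 was bound (3.33%), beside 1.67% of all protein-coding genes. This gene was EBF1, whose F-box protein removes the transcription factor EIN3, with scores of 80.6 in replicate 1 and 101.51 in replicate 2. ACS6, an ethylene synthesis enzyme gene, had a score of 84.12 in replicate 1 alone, and ACS1 had 57.96 in replicate 2 alone; these 2 are named here after their values were seen. The receptor genes ETR1, ERS1, ETR2, EIN4 and ERS2, and CTR1, EIN2 and EIN3, had no peak.

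Motif content was described in 3 kinds of window. In the 300 bp around the TSS, from 250 bp before to 50 bp after it, none of the 9 genes held the GCC box core, the DRE core or the telobox, and 2 (22.2%) held GAGAGA. Over all protein-coding genes these windows held the GCC box core in 2.57%, the DRE core in 15%, the telobox in 6.22% and GAGAGA in 29.2%. Among the 44 unbound members 5 held the GCC box core (11.4%) and 7 the DRE core (15.9%).

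The intervals under the peaks were longer than the promoter windows, and coding sequence of the bound member made up 50.2% of their bases. In the 9 shared intervals, 15.7 kb in all, the GCC box core occurred at 0.894 per kb, the DRE core at 1.28, GAGAGA at 2.36 and the telobox at 0.319 per kb. Over all nuclear peaks of replicate 1 the densities were 0.463, 1.27, 2.09 and 0.165 per kb, in the same order, and over the target regions of all protein-coding genes they were 0.152, 0.575, 1.59 and 0.145 per kb. ERF4 held 13 matches to GAGAGA, counted with overlaps, and 6 to the GCC box core in its 2172 bp, the most of the 9 in each case. ERF4 thus carried 6 of the 14 GCC box cores, and without it the density in the other 8 intervals was 0.593 per kb, a value computed after the data were seen. The target regions of unbound members, 110 kb in all, held this core at 0.621 per kb. Their densities were 0.849 per kb for the DRE core, 1.72 for GAGAGA and 0.201 for the telobox. The kinds of interval were not matched for GC content or coding share. At least 1 GCC box core was present in 5 of the 9 shared intervals (55.6%), against 36 of 44 target regions of unbound members (81.8%), which were longer.

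Within the AP2 stretch itself, with a median of 174 bases in the 9 genes, the telobox was found in 3 of 9 members bound in both libraries, in 2 of 7 bound in 1 library (ERF12 and ERF2) and in 2 of 44 unbound members (ERF1B and ERF15). It was found in 9 of the 144 family genes (6.25%) and in 2.37% of consecutive 180-bp windows of the nuclear genome. Outside the list its carriers were AT4G18450 and ERF110, which had no peak. None of the 6 family genes outside the list that were bound in both libraries held it in this stretch. The GCC box core was in 3 of 9, 1 of 7 and 19 of 44, in that order. Related genes share this stretch by descent, and a match is a word in the sequence, not a binding site.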

How the data were processed

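ChIP-seq with a Myc antibody was compared between 2 AIPP3-4Myc libraries and 1 Col-0 library of 13-day-old seedlings. Per the study's methods and the submitters' processing notes, the authors mapped reads to TAIR10 with Bowtie2 (version 2.2.8) and called peaks in each library with MACS (version 1.4) at default settings. Each deposited score is 10 times the negative logarithm to base 10 of its p-value, so a score of 50 stands for a p-value of 1e-05. Whether MACS was given a control is not given in the sources used here, and sequencing depth is unknown.

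Gene models and sequence came from TAIR10.1 in RefSeq, whose nuclear coordinates are those of TAIR10. Every nuclear peak ended within its chromosome, organelle peaks were not used here, and coordinates are 1-based. Target regions followed the study, from 1 kb before the TSS to the TTS, with an overlap of at least 1 bp. The members and gene lists were chosen with earlier results of these data known, and the 12 subgroups were assigned by hand from the known phylogeny. Named outside the members were genes of the rest of the family and of the ethylene list bound in both AIPP3-4Myc libraries. Any other gene named outside the members, bound in 1 library or in none, was chosen after its values were seen.

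The family was found with phmmer (HMMER 3.4, E-value below 1e-05, query ERF4), a choice made after the list by annotation words was seen. The AP2 stretch is the best match to the part of ERF4 that other family proteins matched. Motifs were counted on both strands with overlaps. Coding sequences were aligned globally with Biopython 1.88. With 2 libraries against 1, no test between genotypes was made. The assignment of peaks to genes was tested on simulated peaks. Alternatives were 8 rules of assignment or filtering and leaving out each AIPP3-4Myc replicate.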

Additional observations from a re-analysis of the deposited data

How the results depend on the processing

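The 9 members bound in both AIPP3-4Myc libraries were the same genes under 7 of the 8 alternative rules, which asked for 500 bp of overlap, the peak midpoint, the gene body, 1 kb on either side of the TSS or the nearest TSS, removed peaks that overlap a Col-0 peak, or shortened replicate 1 to the 430 highest peaks. With a score of at least 100, 7 remained, without DREB2A and TEM2, and 9 members were bound in replicate 1. That score left 0.496% of all protein-coding genes and 8 of the 144 family genes bound in both. Assignment to the nearest TSS alone gave 1.07% of all protein-coding genes, since each peak then counts for a single gene. Requiring a peak in 1 library only, by leaving out either AIPP3-4Myc replicate, gave 11 to 14 members, 18 to 31 family genes and 2.28% to 5.11% of all protein-coding genes. Of 56 values under the 8 rules, 52 stayed within 1.5 times the reported one. They include the Col-0 count, which was 0 throughout, and the replicate 2 count, which cannot change when replicate 1 is shortened. Counts of single subgroups were not among them. With a score of at least 100, DREB2 genes bound in both libraries fell from 1 to 0 and RAV genes from 2 to 1. No paired analysis was possible because Col-0 has 1 library, so that the groups share fewer than 2 replicate numbers. Unknown depth limits what a missing peak means, above all for the 6 members bound in 1 library at scores below 60.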
